A study of Mus musculus with 8 samples.

Results

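The troponin and tropomyosin genes of striated muscle were compared in tibialis anterior (TA) muscle with and without fast myosin-binding protein C. The 10 genes were taken by symbol from the deposited gene table, and they are 10 of its 16686 genes. They are *Tnnt1*, *Tnnt2* and *Tnnt3* for troponin T, *Tnni1* and *Tnni2* for troponin I, *Tnnc1* and *Tnnc2* for troponin C, and *Tpm1*, *Tpm2* and *Tpm3* for tropomyosin. RNA of the TA, a fast-twitch muscle of the lower leg, was sequenced from 4 WT mice and 4 C2-/- mice after selection of polyadenylated RNA, with 1 library per mouse. All 8 mice were males on the FVBN background and 22 months old, and the labels name no treatment for either group. The C2-/- mice lack *Mybpc2*, which encodes fast myosin-binding protein C (fMyBP-C), because exons 2 to 22 of the gene were replaced by a Neo cassette flanked by LoxP sites. The comparison asks whether loss of this thick filament protein goes with a change in the fast or slow isoforms of the thin filament regulators. Values in bulk muscle cannot tell fewer fibres of a type from less RNA per fibre.

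Troponin is the calcium switch of the thin filament. Troponin C binds calcium, troponin I holds the filament in the off state at rest, and troponin T ties the complex to tropomyosin, a coiled coil that lies along actin and covers or exposes the sites for myosin. Fast and slow fibres use products of different genes for each troponin subunit, whereas *Tpm1* and *Tpm3* encode the fast and slow alpha-tropomyosins and *Tpm2* encodes beta-tropomyosin, which both kinds of fibre contain. *Tnnt2* encodes cardiac troponin T, which immature skeletal muscle also makes.

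Expression is given as CPM, the count of a gene per 1000000 counts of the library after scaling by edgeR's TMM factors, for comparisons between mice, and as TPM, the authors' value per length, for comparisons between genes. The libraries held between 25425993 and 29747692 counts, so that 3 counts, the smallest level taken as measurable, lay between 0.101 and 0.118 CPM of unscaled counts. The 10 genes together took between 4.56% and 5.63% of all counts of a mouse. *Mybpc2* was at 4964, 5450, 5101 and 7392 CPM in WT replicates 1, 2, 3 and 4, and at 4.35, 4.02, 38.3 and 3.85 CPM in the same order in C2-/-, so the targeted gene matched the labels in all 8 mice, with C2-/- replicate 3 above the other C2-/- mice. *Myh4*, the myosin heavy chain of the fastest fibres, was between 27814 and 67068 CPM in the 8 mice. WT replicate 2 stood apart for *Cdkn1a*, a cell cycle inhibitor, at 405 CPM against 22.6 to 43.1 CPM in the other 7 mice.

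The 3 slow troponin genes were highest in the same 4 mice, although *Tnnc1* was more like fast troponin genes over all mice, as described further on. The proximal promoters of these 3 genes are shown here beside that of the fast gene *Tnnc2*. Each line holds the 250 bases before the RefSeq start of the gene in GRCm38.p6, read 5′ to 3′ on the strand of the gene. Capitals mark each E-box (CANNTG, the site that MyoD family factors bind) and each MCAT element (CATTCC or its reverse complement, the site that TEAD factors bind).
Tnnt1 promoter, chr7:4515976-4516225, minus strand: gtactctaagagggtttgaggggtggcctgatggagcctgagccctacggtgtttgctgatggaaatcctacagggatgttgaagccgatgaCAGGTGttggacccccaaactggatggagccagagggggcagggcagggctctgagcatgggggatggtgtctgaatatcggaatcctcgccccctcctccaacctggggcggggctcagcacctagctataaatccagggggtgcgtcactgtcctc
Tnni1 promoter, chr1:135799171-135799420, plus strand: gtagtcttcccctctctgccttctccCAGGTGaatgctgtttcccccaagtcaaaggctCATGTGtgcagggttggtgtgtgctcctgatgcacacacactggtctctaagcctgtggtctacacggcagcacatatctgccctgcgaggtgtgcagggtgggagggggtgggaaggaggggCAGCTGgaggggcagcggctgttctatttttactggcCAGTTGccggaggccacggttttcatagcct
Tnnc1 promoter, chr14:31208062-31208311, plus strand: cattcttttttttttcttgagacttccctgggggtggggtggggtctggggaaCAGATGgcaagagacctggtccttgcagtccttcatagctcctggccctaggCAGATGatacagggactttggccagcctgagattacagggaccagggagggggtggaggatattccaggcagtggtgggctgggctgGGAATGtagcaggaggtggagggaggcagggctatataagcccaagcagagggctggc
Tnnc2 promoter, chr2:164779735-164779984, minus strand: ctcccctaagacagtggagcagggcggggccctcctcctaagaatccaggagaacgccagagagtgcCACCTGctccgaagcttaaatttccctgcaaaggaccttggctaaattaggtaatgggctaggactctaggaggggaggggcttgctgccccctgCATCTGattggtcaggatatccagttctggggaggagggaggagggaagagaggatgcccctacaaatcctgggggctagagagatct
The *Tnnt1* window held 1 E-box, the *Tnni1* window 4, the *Tnnc1* window 2 and the *Tnnc2* window 2, and 66.2% of all 32851 promoters in the table held at least 1 in the same length. *Tnnc1* had an MCAT element that began 58 bases before its start, and 12.6% of all promoters held one. None of the 4 windows held a match to the MEF2 or the CArG consensus on either strand, and 2.92% and 1.47% of all promoters did. These counts describe letters in a window of 250 bases only. *Tnni1* has another start in the same table, and only its first listed start is shown. By the positions of the deposited table, given further on, the *Tnni1* and *Tnnc1* windows lie inside the gene. The *Tnnt1* window lies partly inside it. Distances to a start thus refer to the RefSeq start used here and not to the outer end of the deposited gene.

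At the level of the whole muscle, TA held the fast set of all 3 troponin subunits in great excess over the slow set. On the TPM scale, which allows genes to be compared, *Tnnt3* had the highest mean of the 10 genes over the 8 mice at 28854 TPM, followed by *Tpm1* at 26059 TPM, *Tnnc2* at 24814 TPM, *Tnni2* at 10636 TPM and *Tpm2* at 6017 TPM. These 5 genes ranked 6th, 7th, 8th, 14th and 19th among all 16686 genes by mean TPM. *Tpm3* followed at 28.4 TPM, and the last 4 genes were *Tnnt1* at 4.22 TPM, *Tnnc1* at 3.67 TPM, *Tnnt2* at 3.44 TPM and *Tnni1* at 2.87 TPM. The steps from *Tnnc2* to *Tnni2*, *Tpm2*, *Tpm3* and *Tnnt1* held in 8 of 8 mice. The order of *Tnnt3* over *Tpm1* held in 6 of 8 mice and that of *Tpm1* over *Tnnc2* in 4 of 8 mice. These levels rest on the authors' gene lengths, which differ from GENCODE lengths as given further on. Among the 4 genes of lowest TPM the neighbouring orders held in 6, 4 and 5 of 8 mice, and these genes did not differ beyond their spread.

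**Figure D1:**
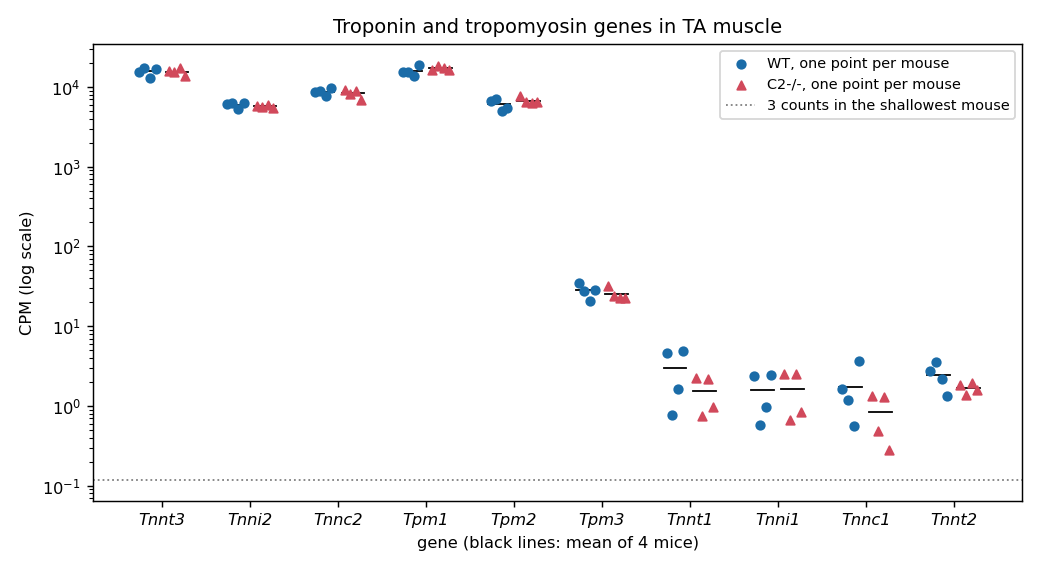
CPM of the 10 troponin and tropomyosin genes on a log axis, with 1 point per mouse (circles for WT, triangles for C2-/-), the mean of 4 mice as a black line, and the level of 3 counts in the shallowest mouse as a dotted line. Fast troponins, *Tpm1* and *Tpm2* lie between 4993 and 18947 CPM, *Tpm3* between 20.8 and 35.2 CPM, and the slow troponins and *Tnnt2* between 0.277 and 4.89 CPM.

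No troponin or tropomyosin gene passed the test between the genotypes. Of the 10 genes, 0 passed edgeR's quasi-likelihood test at an adjusted p under 0.05, against 0.0319% of the 12542 genes tested, and 0 had an unadjusted p under 0.05, against 5.29% of the genes tested. In 0 of the 10 genes were the values of the 2 genotypes free of overlap, against 3.38% of the genes tested. The estimated change was upward in C2-/- for 3 genes and downward for 7, with a median log2 fold change of −0.07 beside −0.02 over all genes tested. The other tools called no member either, although DESeq2 called 30 genes over the whole table and limma-voom 4, as many as edgeR. The 95% intervals were narrow for the fast genes and wide for the slow ones, so each set is given with its values below.

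**Figure D2:**
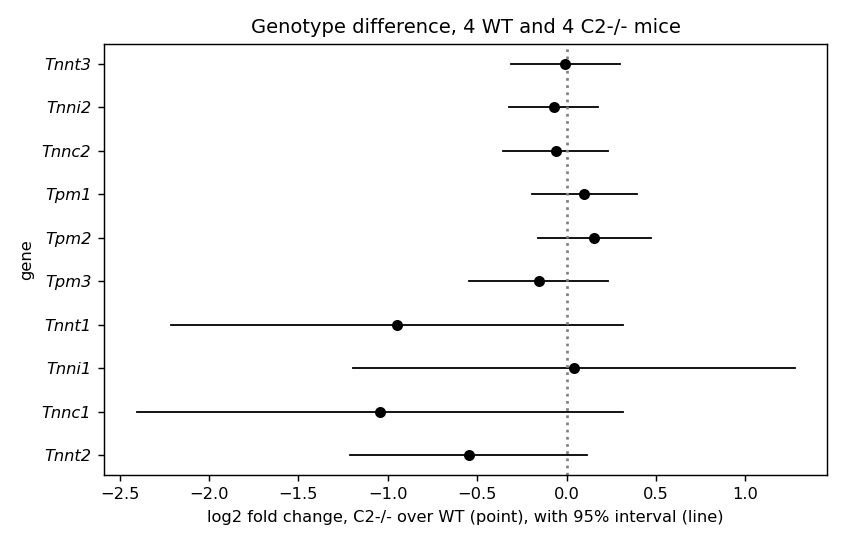
Log2 fold change of each gene in C2-/- over WT (points) with its 95% interval (lines) from edgeR's quasi-likelihood fit of 4 WT and 4 C2-/- mice. All 10 intervals cross 0, those of *Tnnt3*, *Tnni2* and *Tnnc2* lying between −0.35 and 0.30 and those of *Tnnt1*, *Tnni1* and *Tnnc1* reaching beyond 1 on at least one side.

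Troponin T is encoded by 3 genes, whose positions are given, like those of all members, in GRCm38.p6 as the deposited table lists them. *Tnnt3*, the fast troponin T (chromosome 7 from 142498771 to 142516213), was at 15508, 17482, 12875 and 16628 CPM in WT replicates 1 to 4 and at 15847, 15431, 17251 and 13675 CPM in C2-/- replicates 1 to 4. The ranges overlapped almost fully, with the lowest value in WT replicate 3 and the highest in WT replicate 2. The means were 15623 ± 2003 and 15551 ± 1473 CPM (SD, n = 4 each), and the log2 fold change was −0.0067 with a 95% interval from −0.31 to 0.30 and an adjusted p of 0.998 by edgeR's quasi-likelihood test, in which p-values were adjusted over all genes tested by the Benjamini-Hochberg method.

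*Tnnt1*, the slow troponin T (chromosome 7 from 4504569 to 4516000), was at 4.59, 0.766, 1.64 and 4.89 CPM in WT and at 2.23, 0.744, 2.20 and 0.971 CPM in C2-/-, in replicate order. WT replicates 1 and 4 were the highest of all 8 mice, and the lowest mice of the genotypes, WT replicate 2 and C2-/- replicate 2, were nearly equal. The log2 fold change was −0.95 (SE 0.57) with an interval from −2.21 to 0.31, and edgeR's adjusted p was 0.968. The counts behind the lowest and highest mouse were 20 and 135, with exact Poisson 95% intervals of 12.2 to 30.9 and 113 to 160, so the 6.57-fold range between mice on the CPM scale exceeded counting error. Leaving out WT replicate 4 gave −0.59 on the log2 scale, and leaving out WT replicate 2 gave −1.26, with an adjusted p of 0.728 in edgeR's test (0.0202 before adjustment).

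*Tnnt2*, the cardiac troponin T (chromosome 1 from 135836315 to 135852268), was at 2.78, 3.54, 2.20 and 1.34 CPM in WT and at 1.82, 1.38, 1.95 and 1.59 CPM in C2-/-. The highest 3 values were those of WT replicates 2, 1 and 3, but the lowest of all was that of WT replicate 4, so the genotypes overlapped. The log2 fold change was −0.55 (SE 0.30) with an interval from −1.21 to 0.12, an adjusted p of 0.968 in edgeR's test (0.0962 before adjustment, the smallest among the 10 genes). Without WT replicate 4 the change was −0.74 with an adjusted p of 0.968 in edgeR's test (0.0168 before adjustment), and without WT replicate 2 it was −0.31. WT replicate 2, the highest mouse for *Tnnt2*, was also the highest of the 8 for the summed CPM of 12 regeneration and denervation genes, at 767 against 139 to 295 CPM in the others. *Cdkn1a* made up 52.8% of that sum, and without it the sums were 362 CPM in WT replicate 2 and 117 to 268 CPM in the others. The part of this in the *Tnnt2* value was not tested. *Tnni3*, cardiac troponin I, had 1 to 3 counts in every mouse.

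Troponin I followed the same division. *Tnni2*, the fast troponin I (chromosome 7 from 142440490 to 142444410), varied least of the 10 genes, at 6148, 6202, 5273 and 6361 CPM in WT and 5834, 5569, 5978 and 5446 CPM in C2-/-. The C2-/- values lay inside the WT range, and their mean was 5707 ± 243 CPM beside 5996 ± 491 CPM in WT (SD, n = 4 each). Its log2 fold change of −0.07 had an interval from −0.32 to 0.18 and an adjusted p of 0.983 in edgeR's test.

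*Tnni1*, the slow troponin I (chromosome 1 from 135783033 to 135810989), was at 2.35, 0.584, 0.971 and 2.46 CPM in WT and at 2.54, 0.669, 2.52 and 0.832 CPM in C2-/-. Each genotype held 2 mice above 2.3 CPM and 2 mice below 1 CPM, with nothing between. The fourth highest mouse was 2.42-fold above the fifth, and the highest 4 were WT replicates 1 and 4 and C2-/- replicates 1 and 3. Its log2 fold change was 0.04 (SE 0.56) with an interval from −1.19 to 1.28 and an adjusted p of 0.998 in edgeR's test, and it changed sign when single mice were left out, between −0.24 and 0.34.

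Troponin C showed the widest range of the slow genes. *Tnnc2*, the fast troponin C (chromosome 2 from 164777161 to 164779734), was at 8591, 8876, 7659 and 9598 CPM in WT and 9271, 8248, 8836 and 6947 CPM in C2-/-. The highest mouse was WT replicate 4 and the lowest C2-/- replicate 4, and the other values were mixed. Its log2 fold change was −0.06 with an interval from −0.35 to 0.23 and an adjusted p of 0.987 in edgeR's test. Of its 800 exon bases in GENCODE vM21, 592 lie opposite exons of *Ube2c*, and since no source used here says that counting kept the strand, reads of the pair may be mixed. *Ube2c* was given 19 to 158 counts in a mouse and *Tnnc2* at least 200392.

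*Tnnc1*, the troponin C of slow fibres and of heart (chromosome 14 from 31205126 to 31222888), was at 1.62, 1.20, 0.560 and 3.62 CPM in WT and at 1.32, 0.484, 1.31 and 0.277 CPM in C2-/-. WT replicate 4 was the highest and C2-/- replicate 4 the lowest, 13.1-fold apart, with 100 and 8 counts and Poisson 95% intervals of 81.4 to 122 and 3.45 to 15.8 counts. The log2 fold change was −1.04 (SE 0.61) with an interval from −2.40 to 0.32 and an adjusted p of 0.968 in edgeR's test. WT replicate 4 carried much of it, since the change was −0.40 without that mouse, and without WT replicate 3 the change was −1.33 with an adjusted p of 0.633 in edgeR's test (0.0438 before adjustment). The deposited interval of *Tnnc1* overlaps those of *Sema3g* and *Nisch*, which had 215 to 326 and 2244 to 2796 counts in a mouse. Exons of *Tnnc1* in GENCODE vM21 overlap those of no other gene. That annotation holds 1 coding transcript of *Tnnc1*, where the deposited table lists 4 transcripts. The part of reads from these neighbours in the low *Tnnc1* counts was not tested.

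Tropomyosins were more even. *Tpm1*, the fast alpha-tropomyosin (chromosome 9 from 66998440 to 67049649), was at 15388, 15446, 13825 and 18947 CPM in WT and 16170, 18459, 17172 and 16366 CPM in C2-/-. WT replicate 4 was the highest and WT replicate 3 the lowest, and all C2-/- values fell between them. For this gene the log2 fold change was 0.10 with an interval from −0.19 to 0.39 and an adjusted p of 0.976 in edgeR's test.

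*Tpm2*, beta-tropomyosin (chromosome 4 from 43513726 to 43523583), was at 6631, 7036, 4993 and 5498 CPM in WT and 7728, 6383, 6251 and 6545 CPM in C2-/-. The lowest values were those of WT replicates 3 and 4, the highest was that of C2-/- replicate 1, and WT replicates 1 and 2 lay among the C2-/- values. Its log2 fold change was 0.16, the largest upward estimate of the 10 genes, with an interval from −0.16 to 0.47 and an adjusted p of 0.968 in edgeR's test.

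*Tpm3*, the slow alpha-tropomyosin (chromosome 3 from 90072651 to 90100902), was at 35.2, 27.4, 20.8 and 28.7 CPM in WT and 31.7, 24.0, 22.8 and 22.3 CPM in C2-/-. It thus spread 1.69-fold over the 8 mice, far less than the slow troponins did. The log2 fold change was −0.16 with an interval from −0.54 to 0.23 and an adjusted p of 0.973 in edgeR's test. *Tpm3* also makes tropomyosins of cells that are not muscle, and the counts are per gene and do not separate these transcripts.

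The spread between mice of 1 genotype set the slow troponins apart from the fast ones. The biological coefficient of variation, edgeR's estimate of the spread between mice beyond counting error, was between 0.535 and 0.577 for *Tnnt1*, *Tnni1* and *Tnnc1*, 0.289 for *Tnnt2*, 0.194 for *Tpm3*, and between 0.143 and 0.168 for *Tnnt3*, *Tnni2*, *Tnnc2*, *Tpm1* and *Tpm2*, beside a median of 0.196 over all genes tested. *Tnnt1*, *Tnni1* and *Tnnc1* were more variable than 97.6%, 97.3% and 98.1% of all genes tested. *Tnni2* was more variable than 7.01% of them. Genes of all levels enter these shares, and the part of the low counts of the slow troponins in them was not tested.

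The 4 mice with the highest *Tnnt1* were WT replicates 1 and 4 and C2-/- replicates 1 and 3. The same 4 mice were the highest for *Tnni1* and for *Tnnc1*, with 2 mice of each genotype among them. The gap between the fourth and the fifth mouse was 1.34-fold for *Tnnt1* and 1.09-fold for *Tnnc1*, much smaller than the 2.42-fold gap for *Tnni1*. For *Tnnc1* these mice were C2-/- replicate 3 and WT replicate 2, with 37 and 33 counts. Counting error alone could thus change its highest 4 mice, and a split across the genotypes was clear for *Tnni1* only. *Tnnt2* did not follow, with WT replicates 2, 1 and 3 and C2-/- replicate 3 as its highest mice. *Myh7*, the slow myosin heavy chain, was highest in WT replicate 4 at 20.9 CPM, with 2.62, 0.365 and 2.05 CPM in WT replicates 1, 2 and 3 and 1.85, 0.446, 1.74 and 0.624 CPM in C2-/-.

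**Figure D3:**
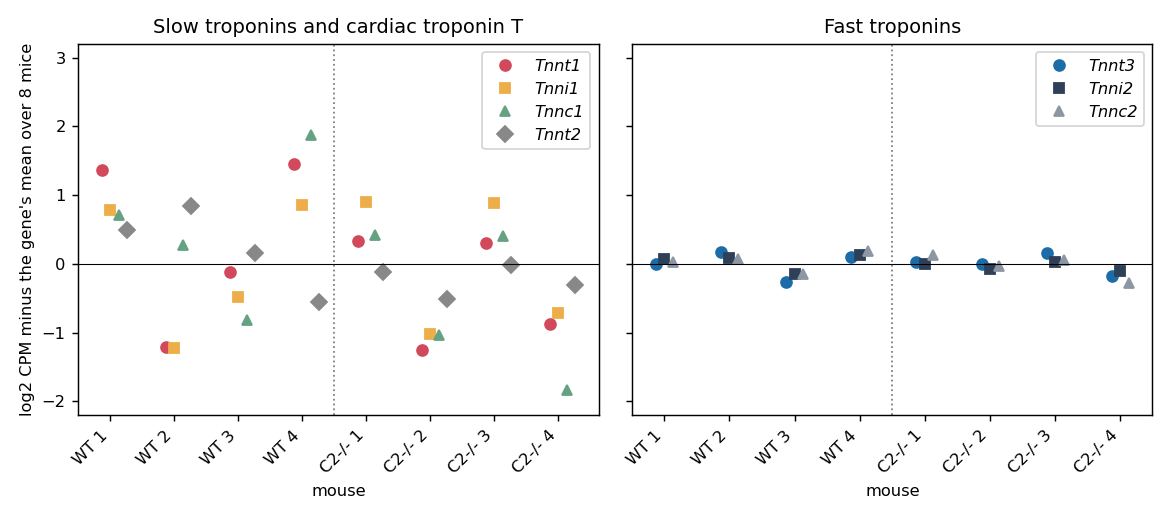
Log2 CPM of each gene in each mouse minus the mean of that gene over the 8 mice, for the slow troponins and *Tnnt2* (left) and the fast troponins (right) on 1 shared axis, with a dotted line between the genotypes. In WT replicates 1 and 4 and C2-/- replicates 1 and 3 all 3 slow troponins are above their means. *Tnnc1* is above its mean in WT replicate 2 too. The fast troponins stay close to 0 in every mouse.

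Likeness between genes was measured by Pearson's r of log2 CPM over the 8 mice and is given as a description, since the values of a mouse share its library and scaling and the slow genes rest on few counts. *Tnnt1* and *Tnni1* had an r of 0.893, which placed *Tnni1* 10th among 11399 genes of at least 1 CPM for likeness to *Tnnt1*, and *Tnnt1* 3rd for likeness to *Tnni1*. *Tnnc1* had an r of 0.765 to *Tnnt1* and 0.696 to *Tnni1*, its slow partners. Its r was higher to the fast genes *Tnnc2* (0.904) and *Tnni2* (0.882), but lower to the fast gene *Tnnt3* (0.681). *Tnnt3*, *Tnni2* and *Tnnc2* had r between 0.809 and 0.859 to each other. Among other slow fibre genes, *Myh7* was 9th for likeness to the mean of the 3 slow troponins (r 0.861), but the slow light chains *Myl2* (r 0.481) and *Myl3* (r 0.416) were 881st and 1267th, and *Casq2* (r −0.050) and *Atp2a2* (r −0.43), the slow calcium store and calcium pump, were 6262nd and 10182nd. Among fast fibre genes, *Mylpf*, the fast regulatory light chain, was 62nd for likeness to the mean of the 3 fast troponins (r 0.840), and the fast myosin heavy chains *Myh4* (r 0.071) and *Myh1* (r −0.47) were 5232nd and 9636th. The 5 genes most like the slow mean were *Nudt2*, *Alg3*, *Dus2*, *Gstz1* and *Jtb*, with r between 0.883 and 0.920, and those most like the fast mean were *Xrcc6*, *Txndc17*, *Orc4*, *Abraxas1* and *Chrac1*, with r between 0.939 and 0.973.

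Fast to slow ratios were formed within each mouse from the counts, with 0.5 added to each, so that the scaling of the library drops out. The log2 ratio of *Tnnt3* to *Tnnt1* was 11.72, 14.44, 12.92 and 11.73 in WT and 12.78, 14.30, 12.93 and 13.76 in C2-/-. That of *Tnni2* to *Tnni1* was 11.34, 13.33, 12.38 and 11.33 in WT and 11.16, 12.98, 11.20 and 12.65 in C2-/-. That of *Tnnc2* to *Tnnc1* was 12.36, 12.83, 13.69 and 11.37 in WT and 12.75, 14.00, 12.70 and 14.52 in C2-/-. The genotypes overlapped in all 3, and the ratio was lowest in WT replicate 4 for troponin C and in C2-/- replicate 1 for troponin I. On a linear scale the fast count exceeded the slow count by 3365 to 22292 times for troponin T, 2283 to 10305 times for troponin I and 2639 to 23576 times for troponin C.

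The difference of the mean log2 ratios, C2-/- minus WT, was 0.74 for troponin T (95% interval −1.66 to 2.58, two-sided exact permutation test p = 0.371). Leaving out single mice moved it between 0.41, without WT replicate 1, and 1.32, without WT replicate 2. It was −0.10 for troponin I (interval −2.16 to 1.66, exact permutation p = 0.829) and 0.93 for troponin C (interval −0.99 to 3.16, exact permutation p = 0.2), the latter between 0.54 without WT replicate 4 and 1.31 without WT replicate 3. For alpha-tropomyosin, the log2 ratio of *Tpm1* to *Tpm3* was 8.77, 9.14, 9.37 and 9.36 in WT and 8.99, 9.58, 9.56 and 9.52 in C2-/-. Replicates 2, 3 and 4 of C2-/- were above every WT mouse and replicate 1 was not, and the difference was 0.25 (interval −0.38 to 0.81, exact permutation p = 0.2), with 0.12 without WT replicate 1 and 0.39 without C2-/- replicate 1. The log2 ratio of *Tpm2* to *Tpm1* differed by 0.06 (interval −0.40 to 0.72, exact permutation p = 0.743). With 4 mice against 4 no p under 0.0286 can be reached, and none of the 5 raw p-values came near it, so adjustment over the 5 changes no call.

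**Figure D4:**
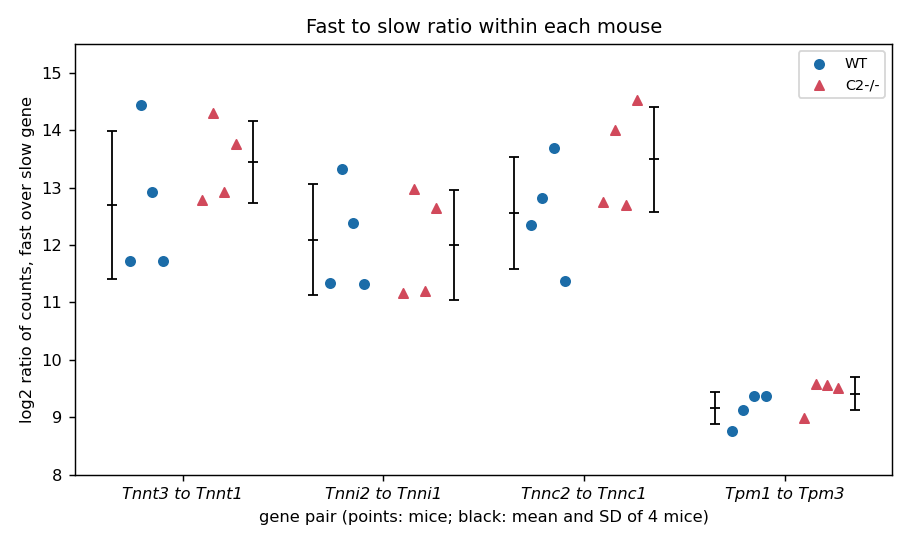
Log2 ratio of the count of the fast gene to that of the slow gene in each mouse (points), with the mean and SD of 4 mice in black beside them, for the 3 troponin subunits and alpha-tropomyosin. The axis starts at 8, the genotypes overlap for every pair, and the troponin ratios spread over more than 2 on the log2 scale where that of *Tpm1* to *Tpm3* stays between 8.77 and 9.58.

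Per length, the slow isoform made up very little of each subunit. On the TPM scale *Tnnt1* was between 0.0044% and 0.0309% of *Tnnt1* and *Tnnt3* together over the 8 mice, *Tnni1* between 0.0085% and 0.0437% of both troponin I genes, and *Tnnc1* between 0.0039% and 0.0371% of both troponin C genes. *Tpm3* was between 0.083% and 0.165% of *Tpm1* and *Tpm3* together, a larger share than that of any slow troponin gene in every mouse. *Tpm3* counts can include tropomyosins of cells that are not muscle, so the share of the slow muscle isoform cannot be told from them. With GENCODE transcript lengths in place of the authors' lengths, the mean *Tpm3* share over the 8 mice was 0.234% in place of 0.111%. The slow share of myosin heavy chain, *Myh7* among *Myh1*, *Myh2*, *Myh4* and *Myh7*, was between 0.0007% and 0.0287% and was highest in WT replicate 4.

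The fast subunits stayed within narrow proportions of each other, and a troponin complex holds each subunit once. *Tnnt3* was between 1.06 and 1.26 times *Tnnc2* on the TPM scale, and *Tnni2* between 0.382 and 0.443 times *Tnnc2*. *Tpm1* was between 0.940 and 1.29 times *Tnnc2*, with the 2 highest values, 1.21 and 1.29, in C2-/- replicates 2 and 4. The TPM values rest on a gene length that the authors' quantification sets for each mouse. Relative to that of *Tnnc2*, this length varied over the mice by 1.35% for *Tnnt3* but by 17.5% for *Tnni2*, 17.2% for *Tnni1* and 14.1% for *Tpm3*. For *Tnni2* it was 1.64, 1.64, 1.57 and 1.51 times that of *Tnnc2* in WT and 1.65, 1.53, 1.59 and 1.77 times in C2-/-, which overlap. On average over the mice it was 1.57 times for *Tnnt3*, 1.61 for *Tnni2* and 1.85 for *Tpm1*. The median GENCODE coding transcript has 1007, 668 and 1642 bases for these genes and 700 bases for *Tnnc2*. The proportions to *Tnnc2*, and the order of *Tpm1* and *Tnnc2*, thus depend on the lengths used.

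Genes that work beside troponin and tropomyosin were counted from lists for the same muscle. Of the thin filament partners, among them sarcomeric actins, nebulin, tropomodulins, leiomodins and capping proteins, 15 of 16 were tested, 10 upward and 5 downward, and 1 had an unadjusted p under 0.05, upward. This was *Actc1*, the actin of heart and of immature skeletal muscle, at 38.3, 15.3, 8.74 and 15.0 CPM in WT and 45.3, 30.5, 49.2 and 23.4 CPM in C2-/-, with an adjusted p of 0.92 in edgeR's test. The share of all genes tested with an unadjusted p under 0.05 was 3.38% upward and 1.91% downward.

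Of 12 slow fibre genes, 9 were lower and 3 higher in C2-/-, with a median log2 fold change of −0.29 beside −0.02 over all genes tested. An unadjusted p under 0.05 was found for 2 of the 12, both downward, against 1.91% of all genes tested. The values of the genotypes did not overlap in 3.38% of all genes tested. *Myl2*, the slow regulatory light chain, was at 1.35, 1.86, 1.34 and 4.13 CPM in WT and 0.833, 0.372, 0.568 and 0.971 CPM in C2-/-, without overlap, yet its adjusted p was 0.615 in edgeR's test at a log2 fold change of −1.66. *Myh7* had a log2 fold change of −2.47 with an adjusted p of 0.914 in edgeR's test, and WT replicate 4 alone held its high value. In all 12 genes, 0 passed at an adjusted p under 0.05.

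Of 12 fast fibre genes, 7 were lower and 5 higher, with a median log2 fold change of −0.07, and 1 passed at an adjusted p under 0.05 in edgeR's test, which was the deleted gene *Mybpc2* itself (log2 fold change −8.82, adjusted p = 0.0075). Of all genes tested, 3.38% were upward and 1.91% downward at an unadjusted p under 0.05. Among 12 regeneration and denervation genes, 3 were upward at this level and 1 downward, and 0 passed adjustment. They were *Actc1*, *Myh3* and *Myh8*, the last a perinatal and *Myh3* an embryonic myosin heavy chain, and *Cdkn1a*, whose lower mean in C2-/- came with the 405 CPM of WT replicate 2.

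Markers of other cells were summed to see which of them moved beside the members. All 5 fibroblast markers were higher in C2-/-. Upward with an unadjusted p under 0.05 in edgeR's test were 3 of them, against 3.38% of all genes tested. After adjustment 0 of them passed. The summed CPM of the 5 markers was 291 to 426 in WT and 467 to 644 in C2-/-, which did not overlap. Smooth muscle and pericyte markers, 7 of 8 higher, summed to 6212 to 6987 CPM in WT and 6251 to 6552 CPM in C2-/-, but *Des*, which skeletal fibres also express, made up 91.5% to 95.3% of a sum. The other 7 markers summed to 298 to 505 CPM in WT and 442 to 534 CPM in C2-/-. Tendon markers were higher in 4 of 5, endothelial markers in 2 of 4, macrophage markers in 4 of 4, Schwann cell markers in 0 of 4, cardiac muscle markers in 1 of 2 and fast skeletal muscle markers in 3 of 7, and the summed levels of all 6 overlapped between the genotypes. The part of any of these cells in the low counts of *Tnnt1*, *Tnni1*, *Tnnc1*, *Tnnt2* and *Tpm3* was not tested.

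Sequence and position bear on how far the counts of the 10 genes can be told apart. The longest identical stretch between any transcripts of a fast gene and its slow partner was 16 bases for *Tnnt1* and *Tnnt3*, 22 for *Tnni1* and *Tnni2*, 21 for *Tnnc1* and *Tnnc2* and 23 for *Tpm1* and *Tpm3*. It was 37 bases for *Tpm1* and *Tpm2*, and 53 bases for *Tnnt2* and *Tnni1*, which lie 25.3 kb apart on chromosome 1 with *Lad1* between them. *Tnni2* and *Tnnt3*, both fast, lie 54.4 kb apart on chromosome 7 with *Lsp1* between them. Besides *Tnnc1*, the deposited intervals of *Tnnt1*, *Tnnt2*, *Tnni1* and *Tpm2* overlap those of other genes. In GENCODE vM21 exons of these members overlap those of no other gene. The part of such overlap in their counts was not tested.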

How the data were processed

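RNA of TA muscle from 4 WT and 4 C2-/- mice was sequenced by the authors on the DNB platform. Per the labels and the methods, reads were aligned with HISAT to GRCm38.p6, and Bowtie2 and DESeq2 are named too. The authors deposited 1 table with expected counts per gene, which are not normalized and of which 5.5% to 6.53% of the values in a mouse are not whole, and with TPM values per gene. It also holds 8 other columns of values per mouse, which were not used, and 3 kinds of value from a DESeq2 comparison that the authors made (log2 fold change, p-value and q-value), which were neither used nor compared. Another age in the labels, which conflicts with 22 months, does not affect the grouping. The methods name featureCounts, which would give whole counts, so the counter is uncertain.

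Of 16687 rows 16686 named a gene. Counts were rounded and tested with edgeR 4.0.16 (R 4.3.3) by its quasi-likelihood test with TMM factors (0.929 to 1.03), filterByExpr, which kept 12542 genes and all 10 members, and Benjamini-Hochberg adjustment over all genes tested. Totals and 3 counts bound the precision, and Poisson intervals cover counting error only. Log2 CPM used a prior count of 2. Each ratio was compared by a two-sided exact permutation test over 70 splits. The labels say no more than that the 8 samples are numbered mice, so p-values measure the spread between them. Both genotypes carry replicate numbers 1 to 4, and the deviations of equal numbers from their group means correlated at 0.267, 0.042, −0.051 and 0.021, so the numbers were not taken to pair mice.

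The alternatives tried were limma-voom (limma 3.58.1), DESeq2 1.42.0, RLE size factors, no filter, at least 10 counts in every mouse, the replicate block, other pseudocounts and lengths, and leaving out each mouse. Sums of list genes without *Des* or *Cdkn1a* were added after the data had been seen. The members, the 4 lists of partner genes (thin filament partners, slow fibre, fast fibre, regeneration and denervation genes) and the 8 marker lists were chosen with earlier results of these data known. The genes named are the 10 members, *Mybpc2*, fibre type references, up to 2 genes per partner list and direction with the smallest p, and the 5 genes most like the slow and the fast troponins. *Myh8*, *Des* and *Tnni3*, as well as *Ube2c*, *Nisch*, *Sema3g*, *Lad1* and *Lsp1* for their positions, are not named by this rule and were picked once their values were known. Exons came from GENCODE vM21 and promoters from RefSeq, which matched 8 of 10 members and not *Tnnt3* and *Tnni2*. Of the tests, edgeR's was tried on simulated counts with known fold changes, and the permutation test was checked on values with a known answer. Python 3.11.15 with scipy 1.17.1 and pandas 2.3.3 did the rest.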

Additional observations from a re-analysis of the deposited data

Results flagged for a closer look

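Among 30 groups of 4 values examined, 1 held a value far from the rest, and chance flags about 1 in 20 groups. The log2 ratio of *Tpm1* to *Tpm3* in C2-/- was 8.99 in replicate 1 against 9.52 to 9.58 in the other 3 mice. In that mouse *Tpm3* was at 31.7 CPM, the highest of the C2-/- mice, and *Tpm1* at 16170 CPM, the lowest of them. The difference between the genotypes in this ratio, 0.25 over all mice, was 0.39 without this mouse and 0.12 without WT replicate 1.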

How the results depend on the processing

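No member passed at an adjusted p under 0.05 under any alternative, and the smallest adjusted p of any member was 0.633. Of 139 fold changes of members under alternatives, 11 had the opposite direction, and these belong to *Tnnt3*, *Tnni1* and *Tnnc2*. For *Tnnt3* the log2 fold change was 0.0063 with at least 10 counts in every mouse and −0.082 to 0.058 when single mice were left out. Leaving out single mice gave −0.24 to 0.34 for *Tnni1* and −0.11 to 0.017 for *Tnnc2*. The difference in the log2 ratio of *Tnni2* to *Tnni1* was 0.065 between medians and −0.43 to 0.32 without single mice, that of *Tnnt3* to *Tnnt1* 0.41 to 1.32 and that of *Tnnc2* to *Tnnc1* 0.54 to 1.31 without single mice, and that of *Tpm2* to *Tpm1* −0.048 between medians and −0.072 to 0.15. Members with an unadjusted p under 0.05 numbered 0 to 1 when single mice were left out, and genes called at an adjusted p numbered 4 to 7, with 7 without WT replicate 2, and 30 with DESeq2. With GENCODE transcript lengths the mean share of *Tpm3* in *Tpm1* and *Tpm3* together was 0.234% in place of 0.111%. *Tnnc1* has no value with at least 10 counts in every mouse. The causes were not tested.

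With the replicate number as a block, *Tnnt1* had a log2 fold change of −0.78, *Tnnc1* of −0.93 and *Tpm1* to *Tpm3* a difference of 0.25 in log2 ratio (exact sign-flip p = 0.125, the smallest that 4 pairs allow). The block changed the call of no member and called 4 genes over the whole table, with 408 higher and 252 lower at an unadjusted p under 0.05 in place of 424 and 239. Only replicate number 1 correlated best with its own number.

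The slow troponins had 8 to 135 counts in a mouse. Their intervals admit changes of more than 2-fold in either direction for *Tnni1* and downward for *Tnnt1* and *Tnnc1*, and the variance of their counts over the 8 mice was 14.3 to 32.7 times that of counting alone, so the spread between mice, more than depth, sets these intervals.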
